A study of Homo sapiens with 6 samples.

Results

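The sodium-calcium exchangers of the SLC8 and SLC24 families were examined in A375 cells, an established human melanoma line, sorted by aldehyde dehydrogenase activity. All 9 genes of the families were taken by name from the 57914 genes of the deposited tables: SLC8A1, SLC8A2, SLC8A3, SLC8B1, SLC24A1, SLC24A2, SLC24A3, SLC24A4 and SLC24A5. The set was chosen by the fold change of SLC24A3 between the sorted groups, one of the largest rises in these libraries, so its values are described here without a test. The other 8 genes were taken by family membership. The cells were stained with Aldefluor, a fluorescent substrate that aldehyde dehydrogenases turn into a product retained in the cell. Cells in the top 5% of the signal formed the ALDH_High group and cells in the bottom 5% formed the ALDH_Low group, with 3 RNA-seq libraries in each. Both groups were the same line in high-glucose DMEM with fetal calf serum and glutamine, and no unsorted cells are used here. The labels do not say whether the numbered libraries came from separate cultures or sorts, so p-values measure the spread between these libraries, which may be technical.

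Exchangers of both families carry calcium across membranes against its gradient by letting sodium in. The SLC8 proteins, called NCX at the cell surface, use sodium alone, whereas the SLC24 proteins, called NCKX, also move potassium out together with calcium. Both depend on the sodium gradient that the sodium pump keeps up, and they share the removal of calcium with the ATP-driven calcium pumps. In pigment cells the family is best known for SLC24A5, an intracellular exchanger in which common variants lighten human skin.

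Total counts ran from 26692868 to 37830603 per library. The first principal component, with 64.2% of the variance, separated the sorted groups, and the second, with 14.5%, set ALDH_High library 1 apart from the other 5. ALDH1A3, an aldehyde dehydrogenase, was at 973 ± 253 CPM (counts scaled to library size; SD, n = 3) in ALDH_High and 389 ± 39.4 in ALDH_Low. Of the melanocyte lineage markers, SOX10 and S100B were higher in ALDH_High and MITF was lower (13.0 ± 0.944 against 24.7 ± 6.62 CPM, log2 fold change -0.92, edgeR adjusted p = 0.00667), while MLANA and TYR, which make and mark pigment, had at most 3 counts in any library. Summed lists were scaled to plain total counts, whereas CPM of single genes use normalized library sizes, so the scales differ slightly. The summed melanocyte list, mainly SOX10, was at 641 to 817 CPM in ALDH_High and 212 to 231 CPM in ALDH_Low. The summed endothelial list of 4 genes, mainly KDR, was at 11.5 to 13.0 against 2.11 to 2.76 CPM. The summed white blood cell list went the other way, at 11.9 to 22.1 against 56.4 to 69.4 CPM, mainly from CD68, with CD3E at 3 counts or fewer. Summed fibroblast markers (18.2 to 20.4 against 19.7 to 25.2 CPM) and summed epithelial markers (10.8 to 15.2 against 8.41 to 11.8 CPM) overlapped between the groups. Single members of these lists differed all the same. PDGFRB (log2 fold change -0.80, edgeR adjusted p = 0.00693) and KRT5 (-3.63, edgeR adjusted p = 0.000898) were lower in ALDH_High. The fibroblast markers DCN and LUM were higher there without overlap but did not pass (edgeR adjusted p = 0.0656 and 0.0718). The part of these differences in the results on the exchangers was not tested. In bulk libraries, fewer cells that express a gene and less of its RNA per cell cannot be told apart.

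SLC24A3 and SLC24A2 were the only exchangers near the limit of detection in one group and plainly present in the other. Both were higher in ALDH_High, a direction that the choice of the set fixed in advance for SLC24A3. SLC8B1 was lower in ALDH_High, and SLC24A1 and SLC8A1, which were abundant in both groups, did not pass the test. The remaining 4 genes had too few counts for the filter on low counts (at least about 10 counts in 3 libraries), so 5 of the 9 were fitted. SLC24A2 and SLC24A3 passed that filter through their ALDH_High libraries, and SLC24A2 through them alone, so no count over the fitted exchangers that includes them is read as support. Of the 3 others fitted (SLC8B1, SLC24A1 and SLC8A1), 1 was lower and none higher in ALDH_High at an adjusted p under 0.05 in edgeR, and the same count was found at an unadjusted p under 0.05. Over all 17047 genes fitted with edgeR's quasi-likelihood test and adjusted by the Benjamini-Hochberg method, 20.6% passed, 10.8% as higher and 9.83% as lower. With so few members, this count says nothing about the family as a whole.

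**Figure D1:**
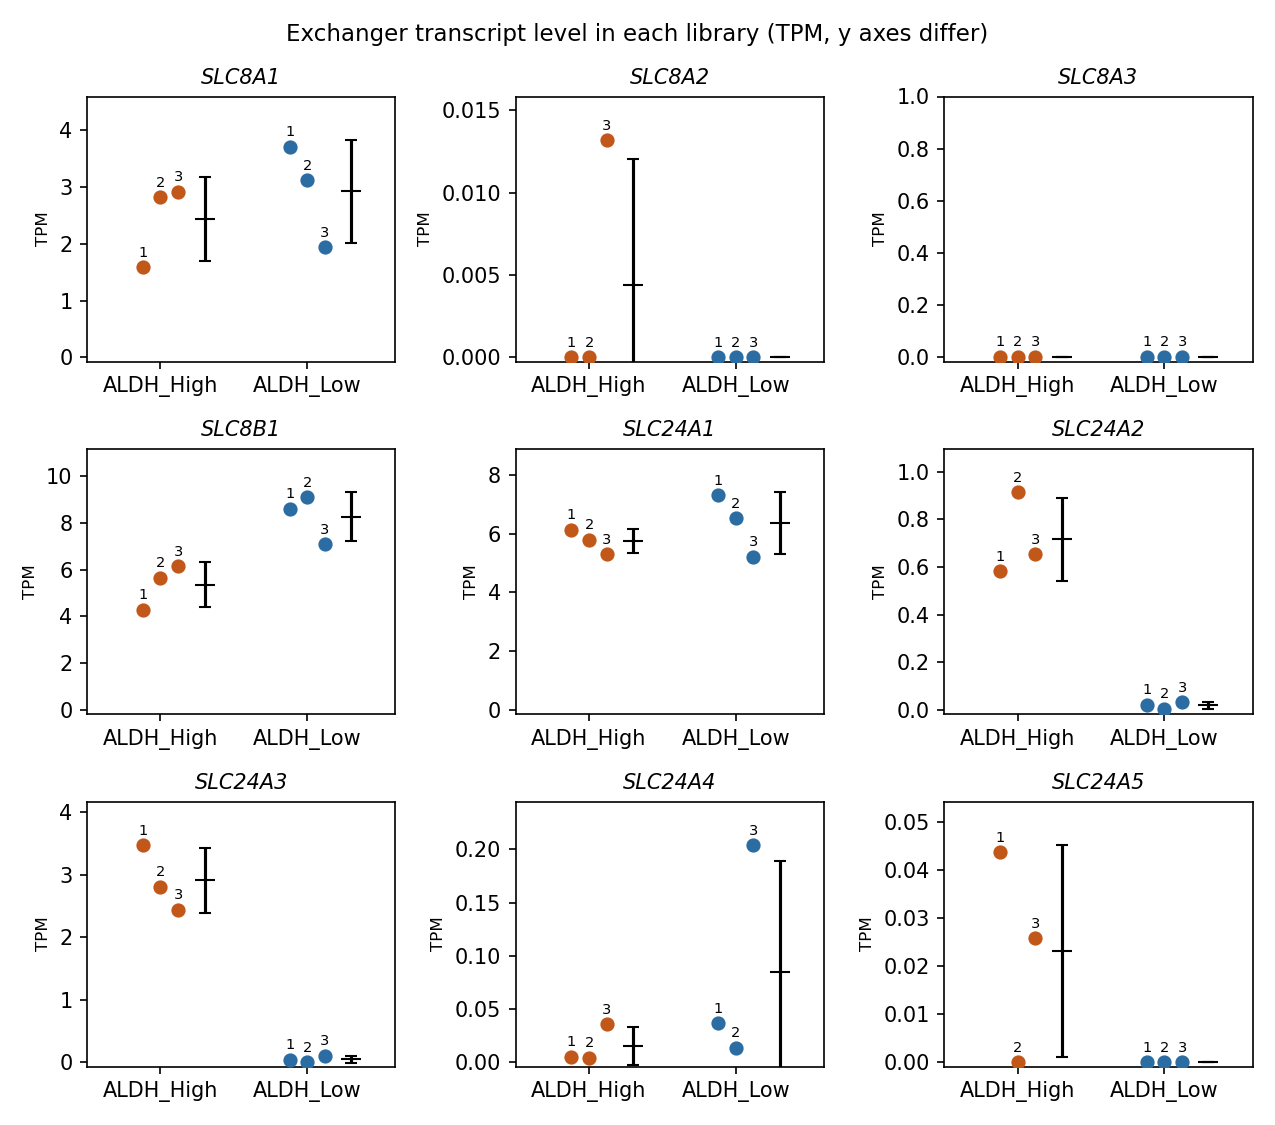
TPM, a library-scaled level per length of transcript (vertical axes differ between genes), of each of the 9 exchangers in every library; points are the 6 libraries with their numbers, the black marks give the mean with SD (n = 3), and error bars that would reach below 0 are cut there. SLC24A3 and SLC24A2 lie near 0 in all 3 ALDH_Low libraries, SLC8B1 sits higher in ALDH_Low, and the libraries of SLC24A1 and SLC8A1 overlap.

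SLC24A3 (ENSG00000185052) encodes NCKX3, a potassium-dependent exchanger of brain and smooth muscle, and spans 510.3 kb of chromosome 20 (GRCh38, chr20:19212642-19722926, plus strand). Its deposited counts were 273, 271 and 228 in ALDH_High libraries 1 to 3 and 5, 0 and 9 in ALDH_Low libraries 1 to 3. These correspond to 10.8, 7.84 and 6.68 CPM against 0.130, 0 and 0.324 CPM. Every ALDH_High library was far above every ALDH_Low library, and 1 ALDH_Low library held no read of the gene at all. The group means were 8.43 ± 2.10 and 0.151 ± 0.163 CPM (SD, n = 3), a ratio of 55.8. On the per-length scale they were 2.91 ± 0.523 and 0.050 ± 0.0526 TPM. The fitted log2 fold change was 5.81 (SE 0.56), with a value of 6.80 when ALDH_Low library 3, which held 9 counts, was left out. SLC24A3 stood twelfth of the 17047 genes by fold change. In the ranking that put it forward it lay between RXRG at a log2 fold change of 5.82 and ITIH6 at 5.69, given here as a description only. Annotated antisense genes run through the SLC24A3 locus (AL136090.1, AL049647.1 and AL121830.1), and each had 0 counts in all 6 libraries. In the authors' deposited table, whose model holds 5 groups and sets each against a group called 1A3, the log2 coefficients of SLC24A3 were 1.37 for the high and -4.48 for the low cells, which differ by 5.85. Here and below, these coefficients belong to the same deposited data and are not a second source.

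SLC24A2 (ENSG00000155886) encodes NCKX2, the exchanger of cone photoreceptors and neurons, and lies on the minus strand of chromosome 9 (chr9:19507452-19789037, 281.6 kb). It had 101, 195 and 135 counts in ALDH_High libraries 1 to 3 and 5, 1 and 6 counts in ALDH_Low libraries 1 to 3. In CPM, the ALDH_High libraries were at 3.98, 5.64 and 3.96 and the ALDH_Low libraries at 0.130, 0.0335 and 0.216. The groups did not overlap, as was true in either direction of 37.8% of all genes fitted, and the lowest ALDH_High library was many times the highest ALDH_Low library. Mean levels were 4.53 ± 0.966 and 0.126 ± 0.0912 CPM (SD, n = 3), a ratio of 35.9. SLC24A2 was higher in ALDH_High by a log2 fold change of 5.14 (SE 0.45; 95% interval 4.13 to 6.14; edgeR adjusted p = 4.35e-05). The exact permutation test on its 6 CPM values gave p = 0.1, the smallest that 3 libraries against 3 can give (two-sided). As no ALDH_Low library reached the count that the filter asks for, SLC24A2 could enter the fit only by being high in ALDH_High, and its call is not read as more than the separation of these counts. The pseudogene C11orf98P1, which lies within SLC24A2, had 0 counts. The authors' deposited table gives log2 coefficients of 8.12 and 2.92 for the high and low cells, a difference of 5.20. Although its fold change was close to that of SLC24A3, SLC24A2 was the scarcer of the pair on the per-length scale, at 0.716 ± 0.174 TPM in ALDH_High.

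The upstream sequence of SLC24A2 is shown because it is the other exchanger near the limit of detection in ALDH_Low, and the table used has an entry for it. RefSeq's promoter table (GRCh38.p14) matched 8 of the 9 exchangers by symbol. The 250 bases before the SLC24A2 start (chr9:19789038-19789287, minus strand, written 5′ to 3′ in the direction of transcription) carry their CG dinucleotides in capitals.
SLC24A2: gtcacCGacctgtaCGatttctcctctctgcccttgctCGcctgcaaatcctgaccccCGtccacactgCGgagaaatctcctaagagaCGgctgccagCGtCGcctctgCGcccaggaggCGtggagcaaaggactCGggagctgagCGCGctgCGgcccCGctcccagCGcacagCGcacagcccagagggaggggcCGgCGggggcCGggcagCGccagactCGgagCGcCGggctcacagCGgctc
This stretch was 70.0% G and C and held 25 CG dinucleotides, whereas the median of the 35116 promoters in the table was 58.0% and 11. As many CG dinucleotides or more were found in 21.6% of promoters. The motif letters GCCNNNGGC of TFAP2, ACAANG of SOX factors, the E-box CACGTG and the M-box core CATGTG were searched on both strands, and none was in this window. They occur in 19.8%, 30.9%, 6.34% and 9.42% of all promoters of this length, and 45.3% hold none of the 4.

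SLC8B1 (ENSG00000089060) encodes NCLX, the sodium-calcium exchanger of the mitochondrial inner membrane, and lies at chr12:113298759-113359493 on the minus strand. Its counts were 227, 369 and 386 in ALDH_High and 653, 534 and 412 in ALDH_Low. In CPM these were 8.95, 10.7 and 11.3 against 16.9, 17.9 and 14.8, so that all ALDH_Low libraries were above all ALDH_High libraries. SLC8B1 was lower in ALDH_High by a log2 fold change of -0.68 (SE 0.16; 95% interval -1.03 to -0.33; edgeR adjusted p = 0.0120; means 10.3 ± 1.22 and 16.5 ± 1.57 CPM, n = 3). Its exact permutation p was 0.1. This call did not hold without ALDH_Low library 2 (log2 fold change -0.62, edgeR adjusted p = 0.0522) or in limma fits to log2(TPM + 1) and log2(TPM + 0.1) (adjusted p = 0.0685 and 0.0641). SLC8B1 overlaps PLBD2 on the opposite strand, which moved the other way with a log2 fold change of 0.54 (edgeR adjusted p = 0.0132), and since it is not stated whether the counting used strand, the level of either gene is uncertain. The authors' deposited table gives -0.22 and 0.44 for SLC8B1, a difference of -0.66.

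SLC24A1 (ENSG00000074621), the exchanger NCKX1 of rod photoreceptors, lies at chr15:65611366-65660995 on the plus strand and was among the 2 most abundant exchangers in both groups. Its counts were 413, 480 and 423 in ALDH_High and 703, 486 and 384 in ALDH_Low, or 16.3, 13.9 and 12.4 against 18.2, 16.3 and 13.8 CPM. The groups overlapped. The log2 fold change was -0.18 (SE 0.16; 95% interval -0.55 to 0.18; edgeR adjusted p = 0.493), an interval that leaves out a 2-fold difference in either direction. DENND4A overlaps SLC24A1 on the opposite strand, with a log2 fold change of -0.24 (edgeR adjusted p = 0.366).

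SLC8A1 (ENSG00000183023), which encodes NCX1, the cell-surface exchanger best known from heart muscle, extends over 513.8 kb on the minus strand (chr2:40097270-40611053). Its counts were 182, 398 and 397 in ALDH_High and 609, 396 and 243 in ALDH_Low, or 7.18, 11.5 and 11.6 against 15.8, 13.2 and 8.74 CPM. The libraries within each group differed more for SLC8A1 than for the other abundant exchangers: ALDH_High library 1 was the lowest of the 6, and ALDH_Low library 3 was below both other ALDH_High libraries. The log2 fold change was -0.32 (SE 0.25; 95% interval -0.88 to 0.25; edgeR adjusted p = 0.439). It was -0.11 without ALDH_High library 1 and likewise without ALDH_Low library 1, and -0.52 without ALDH_Low library 3. Of the other genes of the SLC8 family, SLC8A2 (chr19:47428017-47471893, minus strand), an exchanger of brain, had 1 count in 1 ALDH_High library and none elsewhere, and SLC8A3 (chr14:70044215-70189480, minus strand), of brain and skeletal muscle, had none in any library.

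SLC24A4 (ENSG00000140090, chr14:92322581-92501481, plus strand), the exchanger of olfactory neurons and of enamel-forming cells, was near the floor in most libraries. It had 1, 1 and 7 counts in ALDH_High and 9, 3 and 39 in ALDH_Low. ALDH_Low library 3 thus held most of its reads, and the groups overlapped. In an edgeR fit without the filter on low counts its log2 fold change was -2.53 (SE 0.67, adjusted p = 0.00223), and in the same fit without ALDH_Low library 3, an alternative added after seeing the data, it was -0.82 (adjusted p = 0.735). DESeq2, an alternative count test, gave -2.61 (adjusted p = 0.0916). SLC24A5 (chr15:48120990-48142672, plus strand), the exchanger of pigment cells, had 1, 0 and 1 counts in ALDH_High and none in ALDH_Low. Thus SLC24A5 was at the floor in both groups, as were the pigment genes MLANA and TYR. A count of 0 in a library allows up to 3 counts, or 0.0778 to 0.118 CPM depending on the library, and this limit covers counting error only.

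Levels of different exchangers were compared in TPM. In ALDH_High the order was SLC24A1 (5.75 ± 0.418 TPM), SLC8B1 (5.37 ± 0.961), SLC24A3 (2.91 ± 0.523), SLC8A1 (2.45 ± 0.742) and SLC24A2 (0.716 ± 0.174). In this order the libraries of SLC24A1 and SLC8B1 overlapped, as did those of SLC24A3 and SLC8A1, while the other steps did not. In ALDH_Low the order was SLC8B1 (8.27 ± 1.04 TPM), SLC24A1 (6.35 ± 1.05) and SLC8A1 (2.93 ± 0.905), with SLC24A4, SLC24A3 and SLC24A2 all at mean levels of 0.0847 TPM or less. SLC8B1 was above SLC24A1 within each of the 3 ALDH_Low libraries although the ranges overlapped, and SLC24A1 was above SLC8B1 in 2 of 3 ALDH_High libraries.

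The summed level of the 9 exchangers was 16.1, 18.0 and 17.5 TPM in ALDH_High and 19.7, 18.8 and 14.6 TPM in ALDH_Low, so that the groups overlapped. SLC24A3, by whose values the set was chosen, made up 21.5%, 15.6% and 13.9% of it in ALDH_High and 0.230%, 0% and 0.718% in ALDH_Low. SLC8B1 made up 26.6%, 31.4% and 35% in ALDH_High and 43.6%, 48.5% and 48.6% in ALDH_Low. A larger share of SLC24A3 lowers all other shares by construction; with SLC24A3 left out of the sum, SLC8B1 made up 33.9%, 37.2% and 40.7% in ALDH_High and 43.7%, 48.5% and 49.0% in ALDH_Low, so that the groups still did not overlap. The shares of SLC24A1 were 33.5 ± 4.07% and 35.8 ± 1.12%, and those of SLC8A1 14.1 ± 3.68% and 16.3 ± 2.79% (SD, n = 3). The 5 SLC24 genes together reached 9.41 ± 0.896 TPM in ALDH_High and 6.5 ± 0.923 TPM in ALDH_Low. Without SLC24A3, which chose the set, the other SLC24 genes summed to 6.5 ± 0.417 and 6.45 ± 0.955 TPM. The 4 SLC8 genes summed to 7.82 ± 1.70 TPM in ALDH_High and 11.2 ± 1.87 TPM in ALDH_Low.

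**Figure D2:**
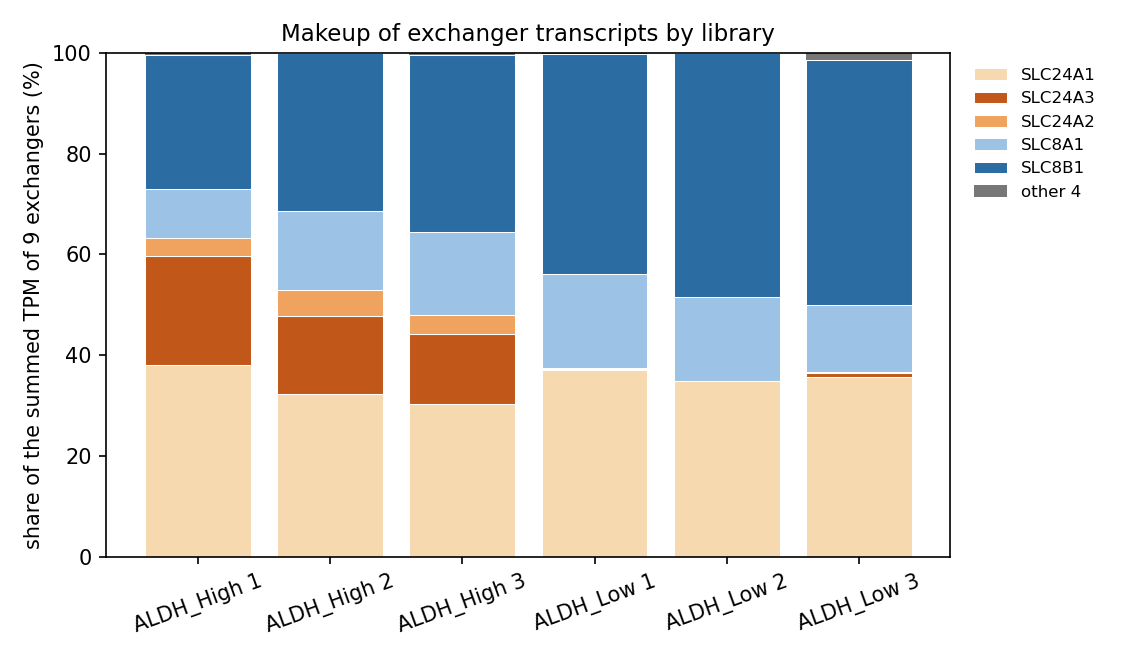
Share of the summed exchanger TPM (percent, vertical axis) that each exchanger took in each of the 6 libraries. SLC24A3 takes between 13.9% and 21.5% in the ALDH_High libraries and under 1% in each ALDH_Low library, where SLC8B1 takes the largest share.

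Sodium-calcium exchange works beside other calcium and sodium transporters, and 6 lists with 86 genes were read from the same fit. Of their 59 fitted genes, 11 were higher and 5 lower in ALDH_High, which is 27.1% against 20.6% of all genes. The median log2 fold change was 0.05 over the lists and -0.01 over all genes. The sodium pump, which maintains the gradient that drives the exchangers, had 4 of 9 fitted genes higher and none lower. This was 44.4%, against 20.6% of all genes, and DESeq2 called 3. ATP1B1, ATP1B3 and FXYD5, named after their values were seen, did not pass (log2 fold change -0.01, 0.04 and 0.29, edgeR adjusted p = 0.985, 0.835 and 0.211). Among the genes called were the small regulatory subunits FXYD3, FXYD6 and FXYD7, the last named after its values were seen. FXYD7 was at 2.95 ± 1.85 against 0.579 ± 0.554 CPM (log2 fold change 2.28, edgeR adjusted p = 0.0425). FXYD3 was at 57.9, 24.9 and 19.3 against 3.09, 1.27 and 1.69 CPM (log2 fold change 4.04, edgeR adjusted p = 0.000209), with ALDH_High library 1 well above the others and a value of 3.44 without it. FXYD6 was scarcer, at 3.43 ± 0.562 against 0.390 ± 0.138 CPM (log2 fold change 3.13, edgeR adjusted p = 0.000161).

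Among the ATP-driven calcium pumps, which share calcium removal with the exchangers, 1 of 6 fitted genes (16.7%) was higher and none lower, close to the 20.6% of all genes. It was ATP2A3, a pump of the endoplasmic reticulum, named after its values were seen because it averaged under 1 CPM (log2 fold change 2.71, edgeR adjusted p = 0.0167), and no ALDH_Low library of it reached the filter's count, so this call supports nothing further. It was the only one of the 16 calls on the 6 lists with no library of the other group at that count. Of 19 fitted calcium entry genes, 5 were higher and 2 lower (36.8%, against 20.6% of all genes), with a median of 0.10. The largest calls by p were TRP channels: TRPV4 at 39.3 ± 14.7 against 7.52 ± 1.61 CPM (log2 fold change 2.38), TRPM8 at 2.98 ± 0.780 against 0.349 ± 0.105 CPM (3.09) and TRPM3 at 4.90 ± 1.89 against 0.598 ± 0.135 CPM (3.01), with edgeR adjusted p-values of 0.000176, 0.000246 and 0.000259. The other calls on this list, named after their values were seen, were CACNA1D and STIM2 as higher and TRPC4 and TRPM2 as lower. Among the 6 calcium release channels 2 were called (33.3%, against 20.6% of all genes). ITPR2 was higher (log2 fold change 0.70, edgeR adjusted p = 0.00756). RYR3 was lower (-3.43, edgeR adjusted p = 0.00431), with 12, 4 and 3 counts in ALDH_High and 39, 104 and 69 in ALDH_Low. Its value of -4.43 without ALDH_High library 1 rests on the 4 and 3 counts left in that group, near the floor. The ITPR2 call did not hold in the limma fits to log2 TPM (adjusted p = 0.0911 and 0.0905). RYR3 was not fitted there, as its mean TPM was under the minimum of 1.

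None of the 12 mitochondrial calcium genes, the partners of SLC8B1 in that organelle, passed edgeR's test, against 20.6% of all genes. At an unadjusted p under 0.05 the count was 1, and DESeq2 and limma called 0. Their median log2 fold change was -0.07. Of 7 fitted calcium-binding proteins 2 were called (28.6%, against 20.6% of all genes): CALB2 (41.7 ± 4.94 against 99.9 ± 5.08 CPM, log2 fold change -1.26, edgeR adjusted p = 7.6e-05) and CALB1 (1.03 ± 0.225 against 4.0 ± 0.247 CPM, -1.95, edgeR adjusted p = 0.000629) were lower, and none was higher. Both are cytosolic calcium buffers.

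**Figure D3:**
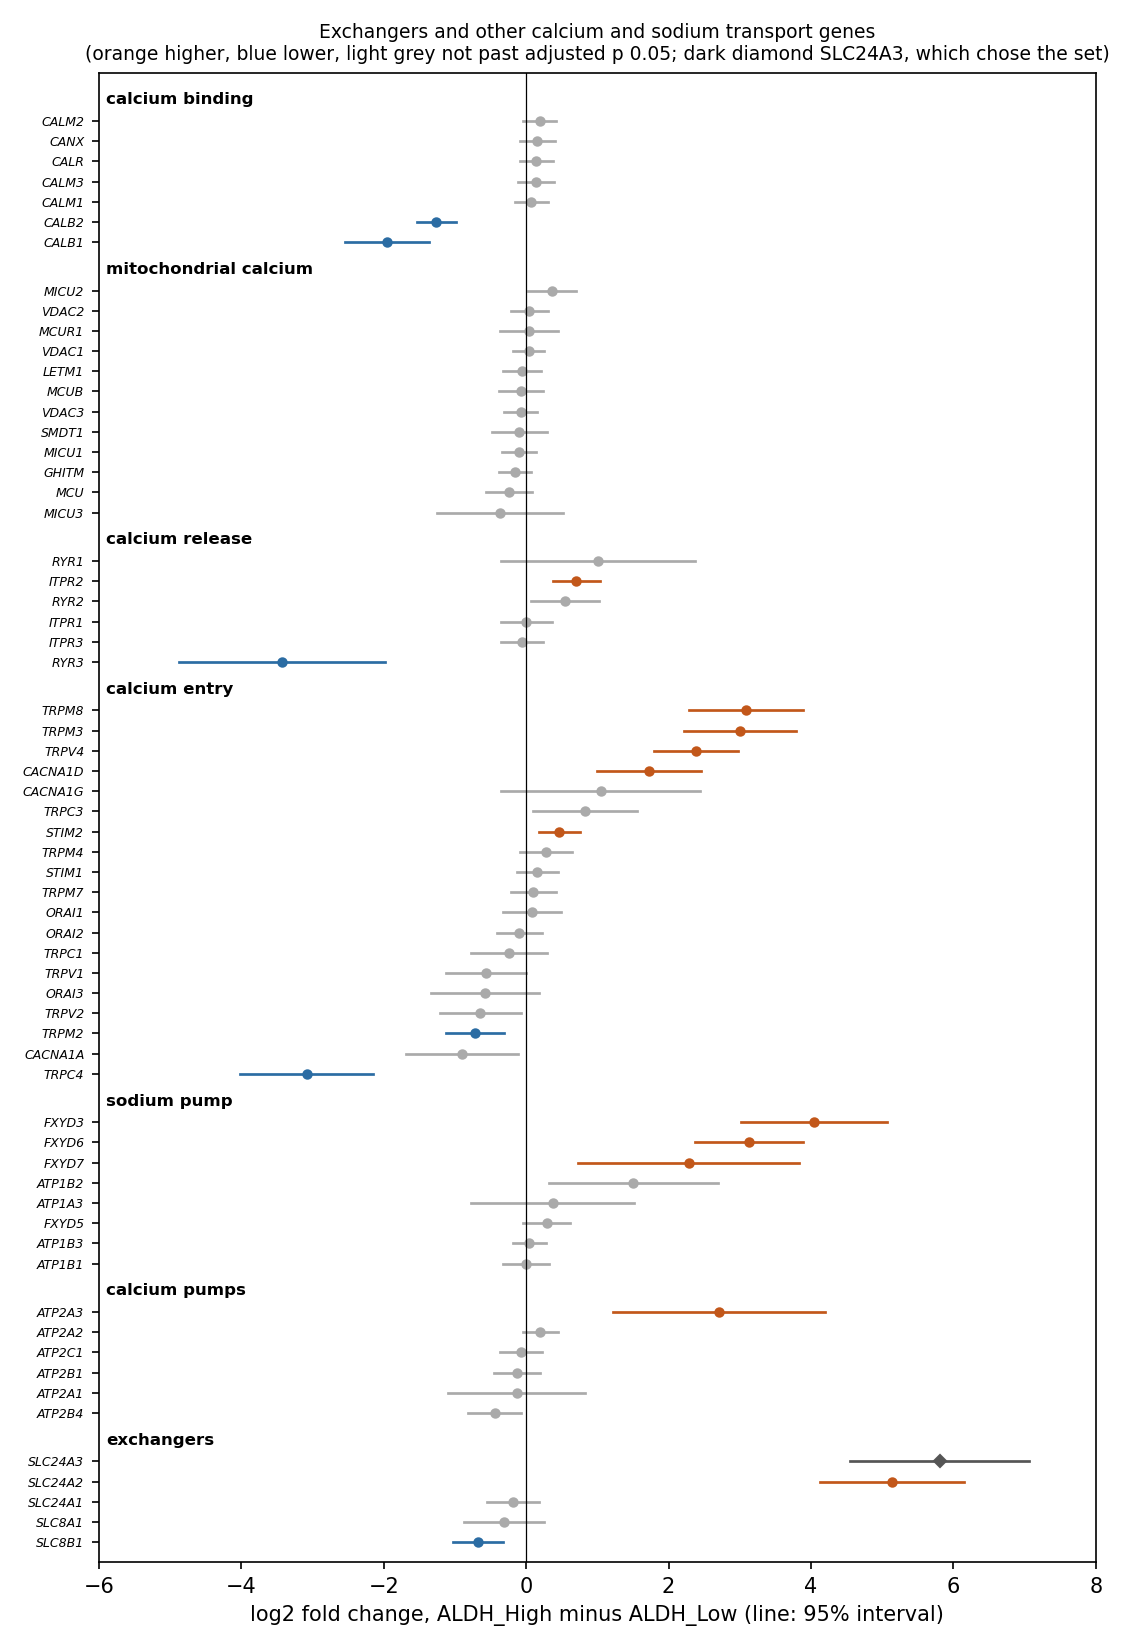
Log2 fold change (ALDH_High minus ALDH_Low, horizontal axis) of the fitted exchangers and of fitted genes of the 6 calcium and sodium lists (1 gene is not shown), one row per gene grouped by list; points are fitted values, lines are 95% intervals, orange and blue mark genes called higher and lower, and the dark diamond is SLC24A3, which chose the set. The called genes shown of the sodium pump list all lie to the right of 0, and the mitochondrial calcium list has none.

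The neighbourhood of SLC24A3 was read from the same fit with gene positions from GENCODE 44. Of the 20 fitted protein-coding genes that start within 2 Mb of the SLC24A3 start, 7 were higher and 1 lower in ALDH_High, or 40.0%, with a median log2 fold change of 0.21. On the whole of chromosome 20 without SLC24A3, 99 of 355 genes were higher and 14 lower (31.8%, median 0.28). Over all 13728 protein-coding genes 22.2% passed, with a median of 0.02. Genes around SLC24A3 therefore leaned the same way as its chromosome, in which far more calls were higher than lower. The nearest fitted gene before it, DTD1, had a log2 fold change of 0.09 (edgeR adjusted p = 0.643). RIN2, the nearest after it, was lower, at 9.27 against 18.2 CPM (log2 fold change -0.98, edgeR adjusted p = 0.00232). Of these closest neighbours, DTD1 thus did not pass and RIN2 had the opposite direction to SLC24A3. Within 1 Mb, 1 of 10 genes was higher and 1 lower, and within 5 Mb, 12 of 31 were higher and 1 lower.

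**Figure D4:**
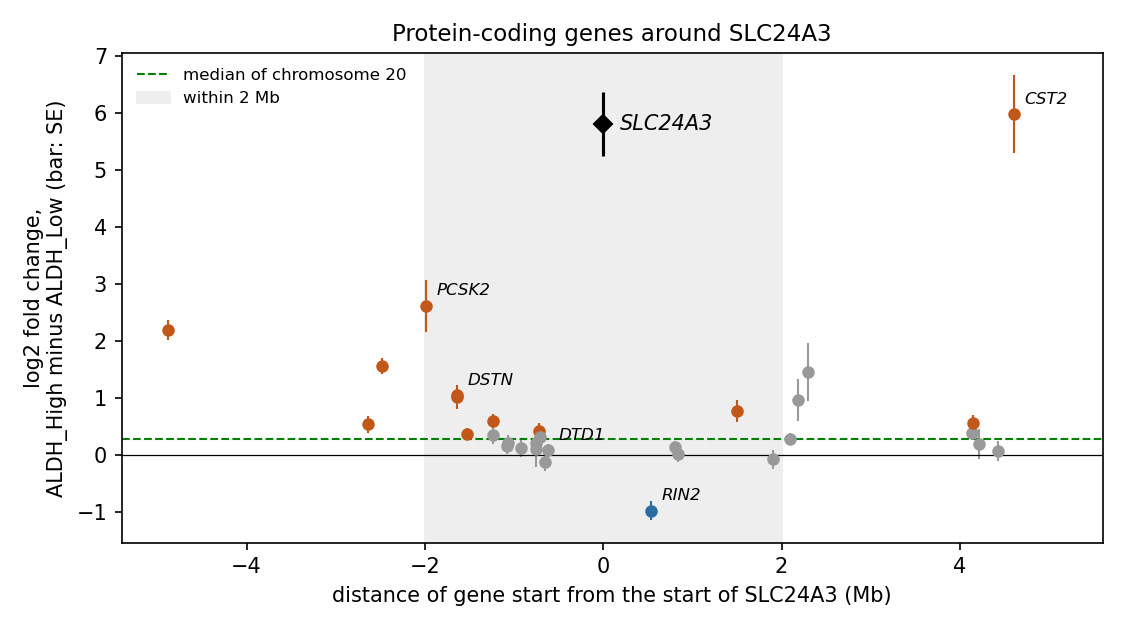
Log2 fold change (vertical axis) of fitted protein-coding genes against distance in Mb between their start and that of SLC24A3 (horizontal axis); bars are SE, orange and blue mark genes called higher and lower, and the dashed line is the median of chromosome 20. Most points lie a little above 0 and RIN2 below it; CST2, the highest neighbour, 4.61 Mb away, had at most 1 count in any ALDH_Low library, so its fitted value of 5.98 is no bound.

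The 5 genes whose profile over the 6 libraries was most like that of SLC24A3 were taken from 14039 genes averaging at least 1 CPM, by the root mean square difference of log2 CPM centred on each gene's mean. They were SOD3 (0.44), TRIM51 (0.49), HLA-DQA2 (0.50), SERPINA3 (0.51) and ITIH5 (0.56 log2 units), and for SLC24A2 the same measure was 0.63. SOD3, the extracellular superoxide dismutase, was at 27, 24.7 and 19.7 CPM in ALDH_High and 0.648, 0.335 and 1.69 CPM in ALDH_Low. SOD3 shared with SLC24A3 the order within each group, with ALDH_High library 1 the highest and ALDH_Low library 2 the lowest. As these 5 genes were picked by likeness, a shared group difference and order were favoured in advance and are not read as support. SERPINA3, a secreted protease inhibitor, was far more abundant, at 336, 356 and 284 against 3.14, 2.81 and 11.5 CPM. TRIM51 and HLA-DQA2 have near-identical copies in the genome, so their levels are uncertain. Leaving out ALDH_Low library 3, in which SOD3, TRIM51, HLA-DQA2 and SERPINA3 were at their highest within the group, moved the log2 fold changes of these 4 genes from 4.77, 4.97, 4.34 and 5.83 to 5.55, 6.98, 5.59 and 6.77. TRIM51 was at 0.0519, 0 and 0.359 CPM in ALDH_Low libraries 1 to 3, so its 6.98 rests on libraries at the floor and is no bound.

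**Figure D5:**
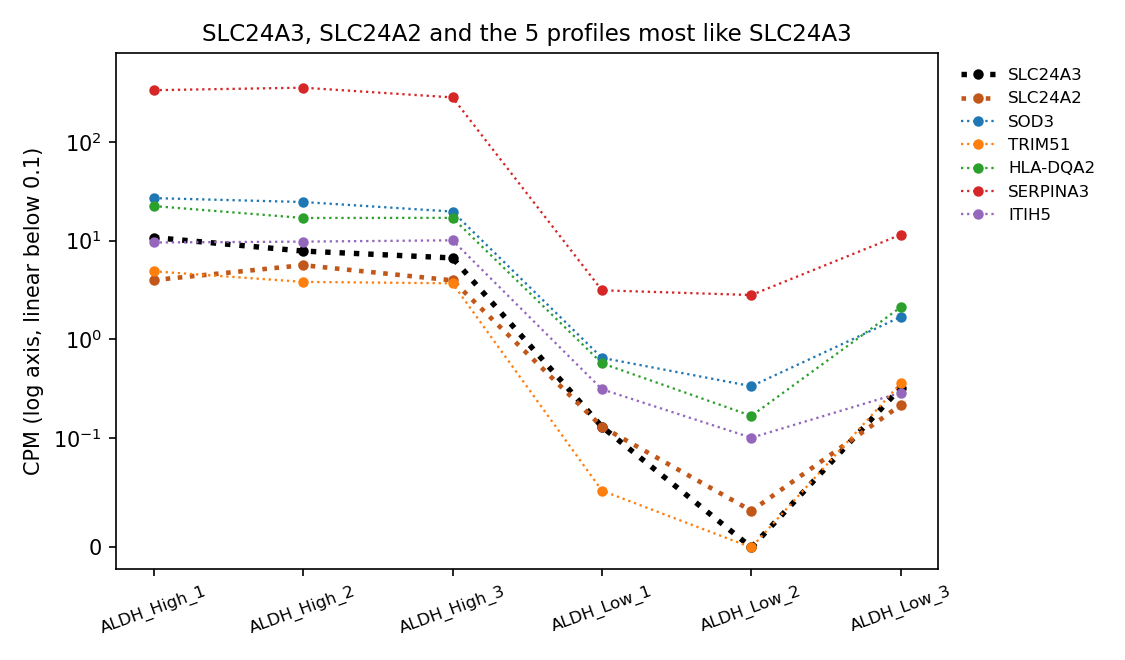
CPM (vertical axis, logarithmic above 0.1 and linear below) of SLC24A3, SLC24A2 and the 5 genes most like SLC24A3 in each of the 6 libraries (horizontal axis); dotted lines join the values of one gene only to guide the eye, since libraries have no order. All 7 genes are high in the 3 ALDH_High libraries and low in the 3 ALDH_Low libraries, and within ALDH_Low each has its lowest value in library 2. The 5 genes were picked by likeness to SLC24A3 over these same libraries, so their shared pattern follows from the choice.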

How the data were processed

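The 6 A375 RNA-seq libraries, 3 per sorted group, were made with a stranded mRNA kit per the labels' protocols. The submitters' processing notes name FastQC 0.11.3, STAR 2.5.1b, HTSeq 0.6.1, DESeq2 and GRCh38 without their roles. The authors deposited estimated counts rounded to whole numbers, TPM, and a table of log2 coefficients from a model of 5 groups, 3 of which are not analysed here. Whether counting used strand is not given in the sources used here. Rows without a gene name (at most 0.0267% of the counts) stayed in the fits. They were left out of the ranking that put SLC24A3 forward and of the candidates for likeness. Estimated counts as deposited were fitted with edgeR 4.0.16 (R 4.3.3; filterByExpr, TMM, quasi-likelihood F-test, Benjamini-Hochberg over 17047 genes, threshold 0.05). CPM use the TMM-scaled library sizes, and 95% intervals use the fit's standard errors. Alternatives were DESeq2 1.42.0, limma 3.58.1 on log2 TPM (mean TPM of at least 1), other scalings, no filter, the replicate number as a block, and each library left out. The steps were tested on simulated data. Same-numbered libraries correlated at 0.15, 0.076 and 0.108 after removal of group means. Each of these was above every differently numbered pair of an ALDH_High and an ALDH_Low library (-0.103 to 0.0235). The main fit did not treat them as pairs, and whether a number marks a shared culture or sort is not in the labels. The members and lists were chosen with earlier results of these data known. Genes named are all exchangers, up to 3 per list with the smallest p (adjusted p under 0.05, at least 1 CPM), the nearest fitted neighbours and antisense genes of SLC24A3, and the 5 most like profiles. A gene that these rules select is not reported here.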

Additional observations from a re-analysis of the deposited data

How the results depend on the processing

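With edgeR, 2 of the 4 fitted exchangers other than SLC24A3 were called, 1 higher (SLC24A2) and 1 lower (SLC8B1). Over all genes 20.6% were called, 10.8% as higher and 9.83% as lower. As SLC24A2 entered the fit through ALDH_High alone, this count is not read as support. Leaving out 1 library gave 1 to 2 calls in all and 0 to 1 lower (0 without ALDH_Low library 2). SLC24A2 then had log2 fold changes of 4.72 to 5.65, and as it entered the fits through ALDH_High alone its repeated call is no support. Both limma fits called 0 exchangers, 0 higher and 0 lower, of 3 tested, as the mean TPM of SLC24A2 was under the minimum of 1; at an unadjusted p under 0.05 each counted 1. Without the filter 2 were lower, the second being SLC24A4. For SLC24A3 the limma values were 1.89 with log2(TPM + 1) and 4.37 with log2(TPM + 0.1). Lower calls over all genes numbered 1675, with 1047 and 1051 in limma and 1073 (without ALDH_High library 2) to 2049 on leaving out 1 library.

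Of the 59 fitted calcium and sodium genes, 16 were called (11 higher, 5 lower), or 27.1% against 20.6% of all genes. With log2(TPM + 0.1) in limma 10 of 49 were called, beside 2457 of 15146 over all genes. Of the 10, 7 were higher, and both limma fits called 3 lower. Lower calls were 9 without the filter and 4 to 8 on leaving out 1 library, with 8 without ALDH_High library 1. Near SLC24A3, 8 of 20 were called (7 higher), and both limma fits called 4 of 19 (3 higher). The 1 Mb window had 2 of 10 (1 higher) and the 5 Mb window 13 of 31 (12 higher). In edgeR 31.8% of chromosome 20 and 22.2% of all protein-coding genes were called. Leaving out 1 library gave 5 to 7, of which 4 to 6 were higher.

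With the replicate number as a block, 3748 genes passed against 3513, SLC24A2 was at 5.12 and SLC8B1 at -0.68 (edgeR adjusted p = 0.0145). The block raised lower calls of calcium and sodium genes to 8. Of 271 values of single tested genes under alternatives, SLC24A3 left out, 264 kept their direction and side of the threshold, 7 lost the call and 0 reversed. Many of these genes were picked from the same libraries, by small p or by likeness to SLC24A3. Their stability was thus likely in advance and is not read as support. Scarce exchangers are limited by depth: differences under about 3 counts a library could not be detected.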

Other observations

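SLC24A2 was examined in its own neighbourhood after its values were seen. Of the 10 fitted protein-coding genes that start within 2 Mb of it, 2 were higher and 1 lower in ALDH_High by edgeR at an adjusted p under 0.05, with a median log2 fold change of -0.06. On chromosome 9 without SLC24A2, 66 of 542 genes were higher and 40 lower (19.6%, median 0.02). The 3 calls near SLC24A2 were ACER2 (log2 fold change 1.53) and MLLT3 (0.71) as higher and ADAMTSL1 (-2.92) as lower.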
